A study of Homo sapiens with 6 samples.

Results

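The genes described here are 31 genes of the p53 pathway, chosen by name: regulators and feedback inhibitors of p53, and direct p53 targets outside the death receptors and the BCL2 family. Of these, 30 had a row among the 24878 genes of the deposited table, and the expression of SPATA18 was not analysed here. PERP, at 0 to 9 counts per library, did not pass the filter on low counts, which left 29 members among the 14601 genes tested. The cells were MOLM-13, an established human line from a monocytic form of acute myeloid leukaemia, in 3 groups of 2 RNA-seq libraries. Both KO-labelled groups carried a doxycycline-inducible CaMK2D-KO vector and were taken after 5 or 3 days of doxycycline, and the cells labelled control had none. The labels do not say whether the control cells carried any vector. CaMK2D is a calcium/calmodulin-dependent kinase. Genotype label and doxycycline changed together, and the time in culture of the controls is not given, so effects of the knockout, of a vector, of the drug and of time cannot be told apart. The labels do not say whether a line was 1 clone. Nor do they say that the 2 libraries of each group were grown separately, so p-values here measure library-to-library spread only, and this may be technical.

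p53 is a transcription factor that is kept low by the ubiquitin ligase MDM2 and its partner MDM4, and that accumulates after DNA damage or other stress. It then raises genes for growth arrest, DNA repair, altered metabolism and cell death, and MDM2 itself, which closes a feedback loop. Many cell cycle genes fall indirectly, because the p53 target CDKN1A (p21) blocks cyclin-dependent kinases and lets the DREAM complex silence them. MOLM-13 is widely used as a leukaemia line with functional p53. Several of these genes also answer to other factors: GDF15 to the stress factor ATF4, and CCNG2, BTG1 and SESN1 to FOXO factors.

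Total counts ranged from 15456770 to 21081298 per library. No KO-labelled library had less of the targeted gene, CAMK2D, than both controls. CAMK2D stood at 28.1 and 28.98 CPM in replicates 2 and 1 at day 5, at 15.6 and 14.7 CPM at day 3, and at 14.5 and 23.0 CPM in the controls (CPM, a library-scaled count with TMM factors). Both day 5 libraries lay above all others, and the day 3 libraries lay between the controls. Its log2 fold change against control was 0.61 at day 5 (edgeR adjusted p = 0.118, or 0.0198 with the replicate block) and -0.30 at day 3 (edgeR adjusted p = 0.437). Between the days it was 0.91 (edgeR adjusted p = 0.196, or 0.00946 with the block). RNA levels do not show whether the protein was lost, so the libraries are called KO-labelled. The summed level of 9 leukocyte and monocytic leukaemia markers was 1562 to 2246 CPM in the KO-labelled libraries and 3849 to 4016 CPM in the controls. PTPRC, SPI1, CD33, FLT3 and CTSG were present in every library, and CD68 was at 0 counts in 5 of the 6. Of 8 of these markers tested 3 fell at both days, FLT3, MPO and SPI1, and 0 rose. With the replicate block 5 fell and 0 rose at each day, where 14.5% and 14.2% of all genes were called lower at day 5 and day 3. MPO, the granule enzyme myeloperoxidase, stood at 15.6 and 6.85 CPM at day 5, 27.7 and 16.5 CPM at day 3 and 1219.9 and 662 CPM in the controls. FLT3, a growth factor receptor, had log2 fold changes of -1.93 at day 5 and -1.54 at day 3 (edgeR adjusted p = 0.000392 and 0.00135). Leaving out 1 library ended the MPO call at day 3 (adjusted p up to 0.0726 in edgeR) and the SPI1 calls at day 5 and day 3 (up to 0.186 and 0.208). Of 14 markers of lymphoid, erythroid, epithelial and stromal cells 4 had a row in the table, and together they held 0.546 to 1.15 CPM in the KO-labelled libraries and 4.43 to 5.37 CPM in the controls. The part of these marker differences in the results on the members was not tested. Libraries with the same replicate number deviated together from their group means, so a fit with the number as a block was also run. Its result is given where the 2 fits differ in a member's call or in a count of called genes given here.

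Promoter sequence was read for the members from 250 bases before to 50 bases after each RefSeq gene start (GRCh38.p14), with 39 starts for 27 of the 31 genes. The 10-base p53 half-site consensus, searched on both strands, occurred in 6 of these 39 windows, which is 15.4%, and in 6.63% of all 35116 promoter windows. GADD45A, RRM2B, PHLDA3 and TP53INP1 had no window and were not searched for any of the letters below. The 6 genes are shown because they are the searched members with a match to the letters that p53 binds. Each is given as 30 bases with the half-sites in capitals.

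DDB2: gtttGAACAAGCCCtGGGCATGTTTggcgg
FDXR: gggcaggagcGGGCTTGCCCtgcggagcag
AEN: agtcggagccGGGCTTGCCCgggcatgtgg
EI24: cgtgcggcccGGGCATGCCCagtgcgggcg
SESN1: attgtcgtctGGACAAGTCTccacaagtca
PLK2: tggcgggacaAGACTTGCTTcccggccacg

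In DDB2 (chr11:47214975-47215004, plus strand) a pair of half-sites stood at bases 6 to 26 after a gene start. Half-sites paired within 13 bases occurred in 10 of all 35116 windows, or 0.0285%. The other 5 genes had 1 half-site each, in FDXR at chr17:74872986-74873015, minus strand, in AEN at chr15:88621296-88621325, plus strand, in EI24 at chr11:125569457-125569486, plus strand, in SESN1 at chr6:109009018-109009047, minus strand and in PLK2 at chr5:58460199-58460228, minus strand. These matches are letters in a window, not measured binding.

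GDF15 had the largest change of the members and CDKN1A the highest level, and both are shown by the 150 bases before their starts, with GGGCGG boxes (either strand) and TATAAA in capitals. 

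GDF15: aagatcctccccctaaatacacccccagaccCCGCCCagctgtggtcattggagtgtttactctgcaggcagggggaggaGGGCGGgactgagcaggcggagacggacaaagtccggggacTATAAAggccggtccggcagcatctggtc
CDKN1A: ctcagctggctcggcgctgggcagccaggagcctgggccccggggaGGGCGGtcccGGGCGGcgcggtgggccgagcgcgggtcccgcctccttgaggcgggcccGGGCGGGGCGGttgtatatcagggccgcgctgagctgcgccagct

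The GDF15 stretch (chr19:18386008-18386157, plus strand) held 2 GGGCGG boxes and a TATAAA 29 to 24 bases before the start. The CDKN1A stretch (chr6:36678564-36678713, plus strand) held 4 GGGCGG boxes, of which the last 2 overlap, and no TATAAA. Of the members' windows 79.5% held GGGCGG and 10.3% held TATAAA, against 45% and 11.5% of all windows. The letters TGATGNAA, an element bound by ATF4 with C/EBP partners, occurred on either strand in 3.62% of all windows and in 1 member's, that of PLK3 (chr1:44800233-44800262, plus strand), shown with the element in capitals.

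PLK3: gagcttctgggTGATGTAAggccgggaatg

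The members covered a wide range of levels. Per gene length, as deposited FPKM (fragments scaled by gene length and depth), the mean level of CDKN1A was 435, 272 and 221 FPKM at day 5, at day 3 and in the controls, above every other member in each group. CCNG1 and TRIAP1 came next in the controls, with means of 56.7 and 51.7 FPKM. GDF15 averaged 115, 38.3 and 1.91 FPKM at day 5, at day 3 and in the controls, and so was 2nd among the members at day 5. TP53I3, TIGAR and PERP had means under 1 FPKM in all 3 groups.

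**Figure D1:**
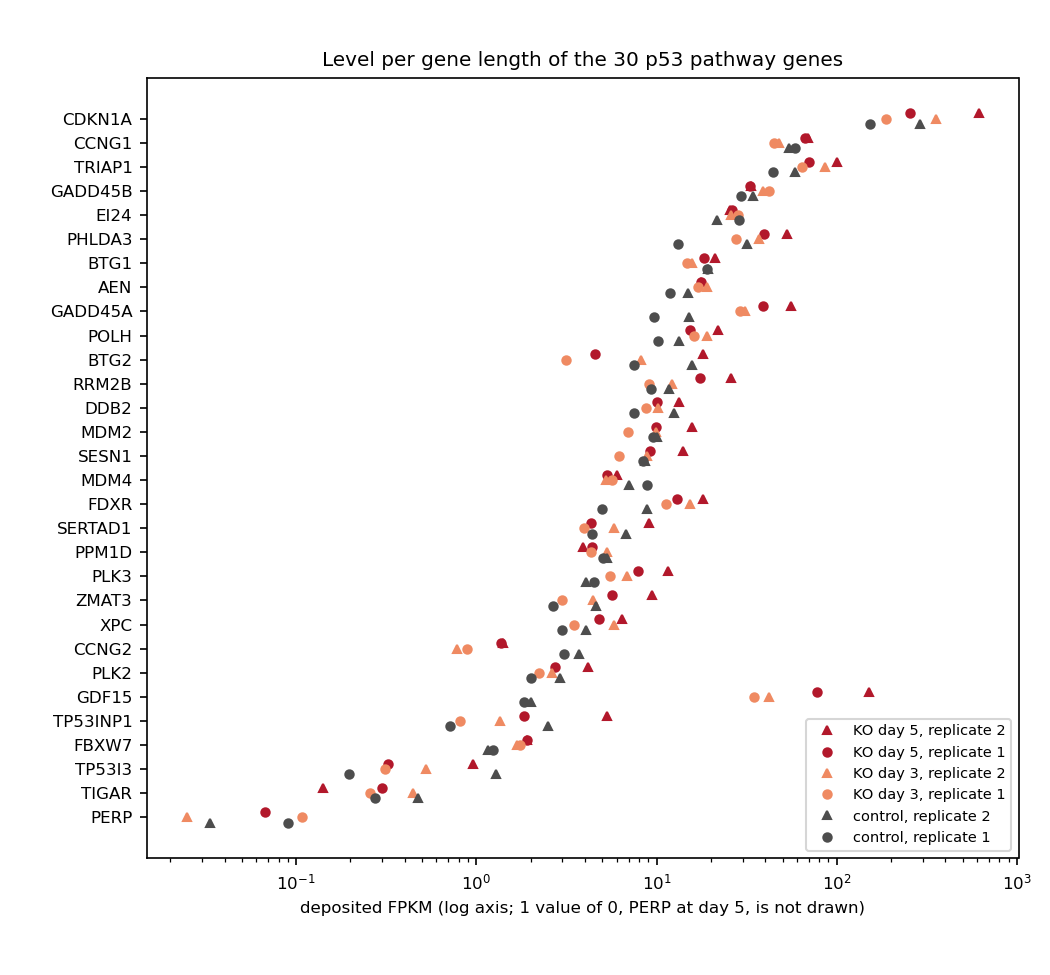
Deposited FPKM (log axis) of the 30 p53 pathway genes with a row, ordered by their mean in the controls, with 1 point per library. CDKN1A is highest in each group, and GDF15 is the gene whose KO-labelled points lie farthest from its control points, at 34.7 to 151 FPKM against a control mean of 1.91 FPKM.

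At day 5 more members were higher than lower against control. Without a block 5 of 29 rose (GDF15, GADD45A, PLK3, RRM2B and FBXW7) and 2 fell (CCNG2 and MDM4) at an edgeR adjusted p below 0.05 over all genes. Over all 14601 genes 7.44% were called higher and 7.05% lower. The median log2 fold change was 0.41 over the members and 0.01 over all genes tested. Within both replicate numbers 19 members were higher and 3 lower, against 37.4% and 36.4% of all genes. Both day 5 libraries lay above both controls in 14 members and below in 3, against 29.6% and 28.4% of all genes. With the replicate block 14 members rose and the same 2 fell, where 15.8% of all genes were called higher and 14.5% lower. The 9 added by the block were CDKN1A, FDXR, TP53INP1, ZMAT3, PHLDA3, TRIAP1, POLH, XPC and AEN.

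At day 3, without a block, GDF15 and GADD45A rose and CCNG2 fell, where 5.72% of all genes were called higher and 5.99% lower. The share of members called, 3 of 29, was near the 11.7% of all genes called in either direction. The members' median log2 fold change was 0.04, and over all genes it rounded to 0.00. Within both replicate numbers 13 members were higher and 7 lower, against 37.6% and 37.9% of all genes. Both day 3 libraries lay above both controls in 9 members and below in 4, against 30.3% and 30.1% of all genes. With the block 10 rose and 3 fell, where 13.6% of all genes were called higher and 14.2% lower. The 10 that rose were GDF15, GADD45A, FDXR, POLH, TRIAP1, AEN, PLK3, FBXW7, GADD45B and CDKN1A, and the 3 that fell were CCNG2, MDM4 and BTG2.

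**Figure D2:**
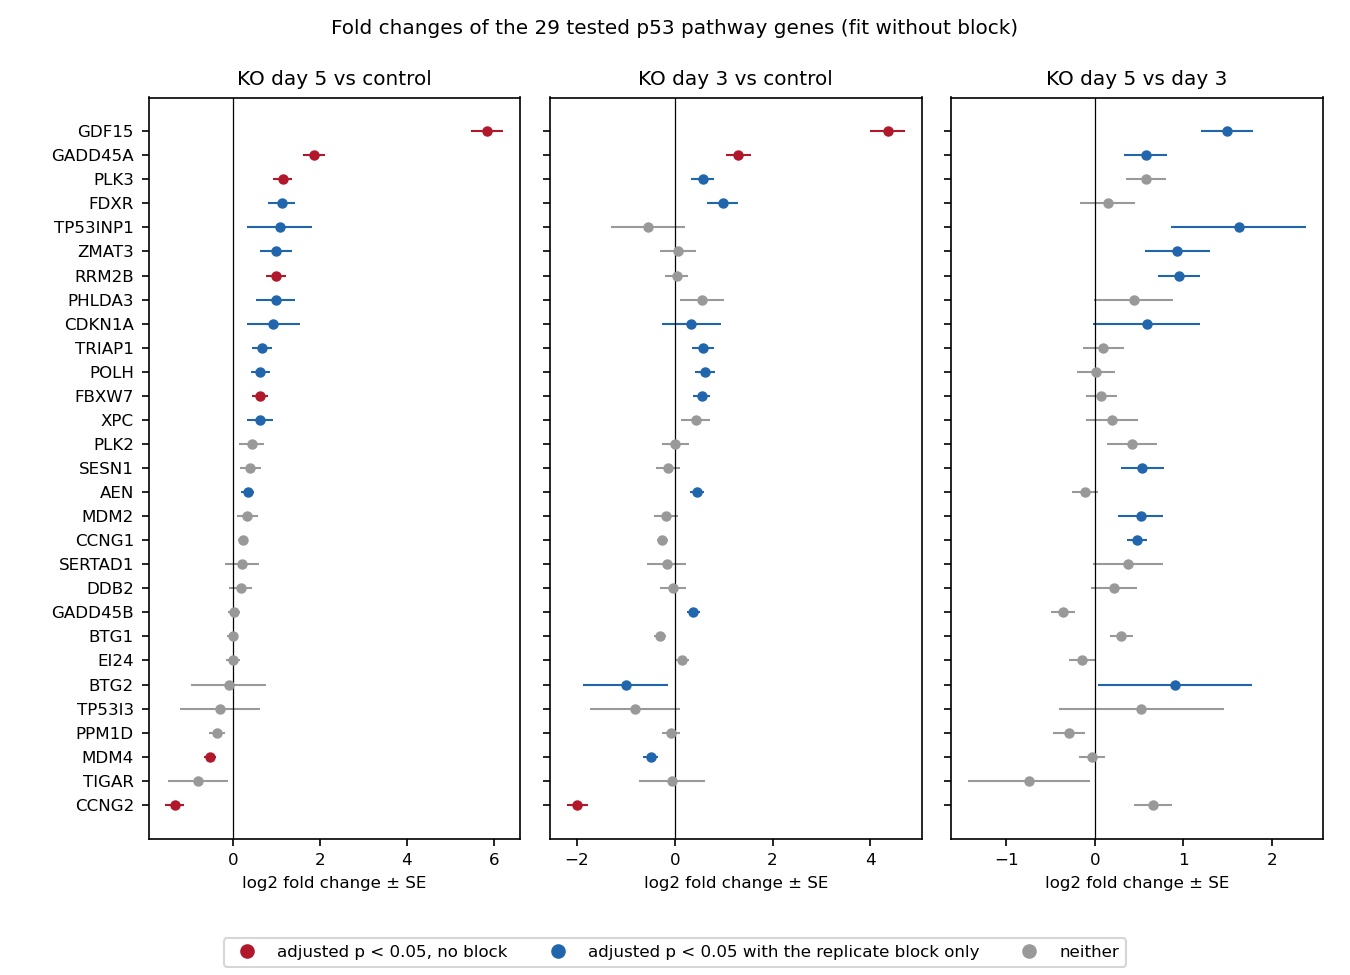
Log2 fold changes (points) with their standard errors (bars) of the 29 tested members in the fit without a block, for KO day 5 against control, KO day 3 against control and KO day 5 against KO day 3. Red points passed the threshold in that fit and blue points passed it only with the replicate block; GDF15 lies at 5.85 and 4.35 in the comparisons with control, apart from all other members.

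GDF15, a secreted stress cytokine of the TGF-beta family (chromosome 19, 18374731 to 18389176, plus strand, GRCh38), had the largest change of the members. It stood at 303 and 161 CPM at day 5, 90.8 and 73.5 CPM at day 3 and 4.22 and 3.79 CPM in the controls, for replicates 2 and 1 in that order as in all such pairs below. Both KO-labelled pairs lay far above both controls, and day 5 lay above day 3. The log2 fold change was 5.85 ± 0.37 (SE, adjusted p of 0.000731 in edgeR) at day 5 and 4.35 ± 0.35 (SE, adjusted p of 0.00222 in edgeR) at day 3. These 2 calls held in every alternative run, and the log2 ratio at day 5 was 6.01 and 5.23 within replicates 2 and 1. Only 1 promoter window was searched for GDF15, at a start inside the gene bounds given above and not at their first base. It held neither the p53 half-site letters nor TGATGNAA, which occurred in only 6.63% and 3.62% of all windows. Other sequence near the gene was not searched. In bulk libraries such as these, more cells with a transcript and more of it per cell cannot be told apart, and the same holds for a fall.

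Among the 4 regulators MDM4 fell at day 5, and the other 3 did not pass against control in either fit. MDM4, which binds p53 and blocks its activity (chromosome 1, 204516379 to 204558120, plus strand), stood at 63.6 and 57.6 CPM at day 5, 60.2 and 63.5 CPM at day 3 and 77.9 and 96.3 CPM in the controls. All 4 KO-labelled libraries lay below both controls. Against control the log2 fold change was -0.52 ± 0.15 (SE, adjusted p of 0.0491 in edgeR) at day 5 and -0.49 ± 0.15 (SE, adjusted p of 0.0667 in edgeR) at day 3, the 2nd of which passed with the block (edgeR adjusted p = 0.00902). The day 5 call was lost without control replicate 1 (-0.37, edgeR adjusted p = 0.15), without any 1 KO-labelled library (0.0788 to 0.179), when only the 4 libraries compared were fitted (0.0848) and by limma on log2(FPKM + 1) values (0.106).

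MDM2, the ubiquitin ligase that is both inhibitor and target of p53 (chromosome 12, 68808176 to 68850686, plus strand), stood at 201 and 129.9 CPM at day 5, 138 and 93.4 CPM at day 3 and 136 and 127 CPM in the controls. The groups overlapped, with the day 5 replicate 2 library highest. Its log2 fold change was 0.33 ± 0.25 (SE, adjusted p of 0.412 in edgeR) at day 5 and -0.18 ± 0.25 (SE, adjusted p of 0.679 in edgeR) at day 3, neither past the threshold in either fit. Of its exonic bases 133, or 1.0%, are shared with CPM, a carboxypeptidase gene on the other strand with up to 1330 counts, and reads there cannot be told apart unless strand was used.

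PPM1D, a phosphatase that switches the p53 response off, stood at 18.9 and 21.7 CPM at day 5, 27.7 and 22 CPM at day 3 and 27.1 and 25.3 CPM in the controls. Both day 5 libraries lay below both controls and the day 3 libraries did not. The log2 ratio to control was -0.37 ± 0.18 (SE, adjusted p of 0.214 in edgeR) at day 5 and -0.08 ± 0.18 (SE, adjusted p of 0.827 in edgeR) at day 3. CCNG1, a cyclin that recruits a phosphatase to MDM2, stood at 208 and 203 CPM at day 5, 155 and 140.4 CPM at day 3 and 171 and 181 CPM in the controls. Its day 5 libraries lay above the controls and its day 3 libraries below, with log2 fold changes of 0.23 and -0.25 (edgeR adjusted p = 0.225 and 0.19).

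CDKN1A, the p21 inhibitor of cyclin-dependent kinases (chromosome 6, 36676460 to 36687339, plus strand), was high in every library and split by replicate number. It stood at 1808 and 764 CPM at day 5, 1127 and 583 CPM at day 3 and 891 and 461 CPM in the controls. Replicate 2 lay above replicate 1 in each group, and the groups overlapped. Without a block the log2 fold change was 0.93 ± 0.61 (SE, adjusted p of 0.38 in edgeR) at day 5 and 0.34 ± 0.60 (SE, adjusted p of 0.767 in edgeR) at day 3. Leaving out 1 library at a time moved the day 5 value between 0.18 (KO day 5 replicate 2 left out) and 1.45 (control replicate 2 left out). Within replicates 2 and 1 it was 1.02 and 0.73 at day 5, and 0.34 and 0.34 at day 3. With the replicate block CDKN1A rose, by a log2 fold change of 0.88 at day 5 (edgeR adjusted p = 3.41e-05) and 0.34 at day 3 (edgeR adjusted p = 0.0485). In the fit without a block its sign at day 3 turned to -0.06 without control replicate 1 and to -0.20 without KO day 3 replicate 2.

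**Figure D3:**
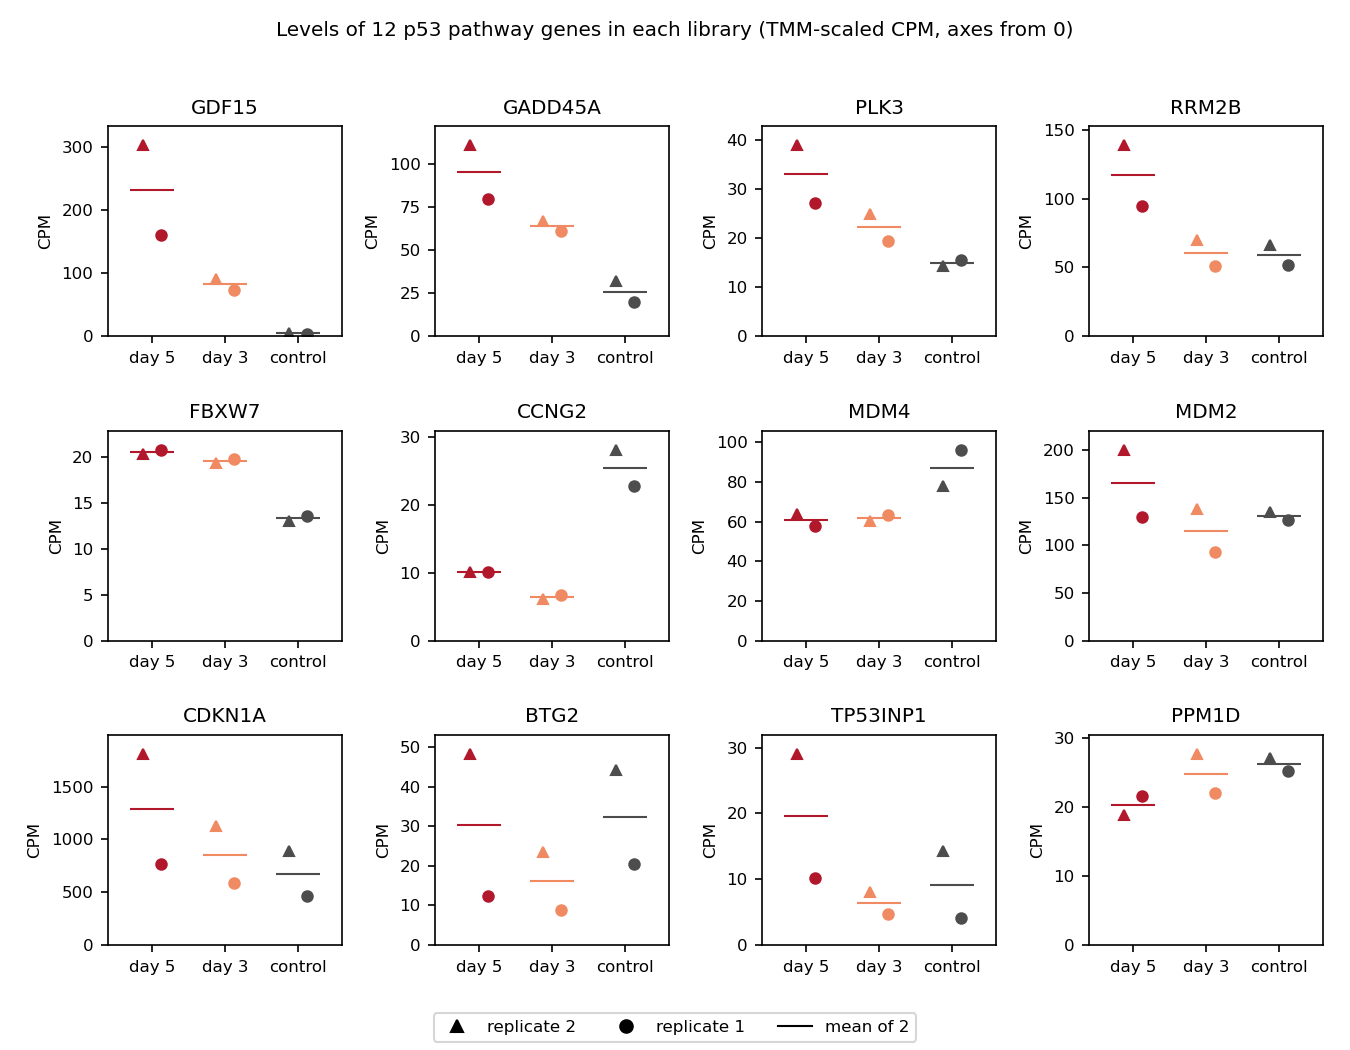
TMM-scaled CPM (linear axes from 0) of 12 p53 pathway genes in each library; triangles are replicate 2, circles replicate 1 and lines the mean of 2. GDF15 and GADD45A are higher and CCNG2 lower in all 4 KO-labelled libraries than in both controls, while CDKN1A, BTG2 and TP53INP1 show replicate 2 above replicate 1 in each group.

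The other growth arrest genes moved in both directions. GADD45A, a stress protein that binds p21, PCNA and cell cycle kinases (chromosome 1, 67685061 to 67688338, plus strand), rose with no overlap between groups. It stood at 111 and 79.5 CPM at day 5, 67 and 60.7 CPM at day 3 and 31.7 and 19.9 CPM in the controls. Its log2 fold change was 1.88 ± 0.25 (SE, adjusted p of 0.00527 in edgeR) at day 5, a call that held in every alternative run, and 1.30 ± 0.25 (SE, adjusted p of 0.0201 in edgeR) at day 3. Either KO day 3 library, when left out, took the day 3 call with it (adjusted p of 0.0695 and 0.0868 in edgeR). Its paralogue GADD45B stood at 68.8 and 69.3 CPM at day 5, 86.2 and 90.9 CPM at day 3 and 73.6 and 62.2 CPM in the controls, highest at day 3, where its log2 fold change was 0.38 ± 0.13 (SE, adjusted p of 0.101 in edgeR) without a block and it passed with it (edgeR adjusted p = 0.0282).

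CCNG2, an unusual cyclin linked to cell cycle exit (chromosome 4, 77157151 to 77433388, plus strand), fell at both days. It stood at 10.1 and 10.1 CPM at day 5, 6.10 and 6.72 CPM at day 3 and 28.2 and 22.8 CPM in the controls. Its KO-labelled libraries all lay below both controls, and day 3 lay below day 5. The log2 fold change was -1.34 ± 0.21 (SE, adjusted p of 0.00725 in edgeR) at day 5 and -1.99 ± 0.22 (SE, adjusted p of 0.00253 in edgeR) at day 3, and both calls held in every alternative run. CCNG2 is also a FOXO target, and of 10 other FOXO targets tested 2 fell at day 5 and 3 at day 3, with 0 higher, where 7.05% and 5.99% of all genes were called lower. With the block 3 fell at day 5 and 5 at day 3, with 0 higher, where 14.5% and 14.2% of all genes were called lower. BTG1 and SESN1, the other members named as FOXO targets, did not pass against control in either fit. The part of FOXO factors in the CCNG2 result was not tested. Among the 10 FOXO targets TXNIP, an inhibitor of thioredoxin, stood at 104 and 91.9 CPM at day 5, 178 and 192 CPM at day 3 and 275 and 281 CPM in the controls. TXNIP fell at both days, but at day 3 not without either KO day 3 library (edgeR adjusted p = 0.121 and 0.194).

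PLK3, a stress-responsive polo-like kinase, rose at day 5. It stood at 38.9 and 27.1 CPM at day 5, 24.8 and 19.4 CPM at day 3 and 14.3 and 15.5 CPM in the controls, so the groups did not overlap and their order was day 5, day 3, control. PLK3 had a log2 fold change of 1.15 ± 0.23 (SE, adjusted p of 0.0162 in edgeR) at day 5 and 0.57 ± 0.23 (SE, adjusted p of 0.141 in edgeR) at day 3. With KO day 5 replicate 2 left out, day 5 no longer passed (0.86, adjusted p of 0.0867 in edgeR), and day 3 passed with the block in edgeR (adjusted p = 0.0315) but not in DESeq2 (adjusted p = 0.1). Its relative PLK2 stood at 19 and 12.8 CPM at day 5, 13 and 10.7 CPM at day 3 and 14 and 9.51 CPM in the controls and did not pass the threshold in either fit. Its values against control were 0.44 and 0.02 on the log2 scale (edgeR adjusted p = 0.339 and 0.98).

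FBXW7, the substrate receptor of a ubiquitin ligase for cyclin E and MYC, stood at 20.4 and 20.8 CPM at day 5, 19.4 and 19.8 CPM at day 3 and 13 and 13.6 CPM in the controls. Replicates lay close together and every KO-labelled library lay above both controls. The log2 fold change came to 0.63 ± 0.18 (SE, adjusted p of 0.0487 in edgeR) at day 5 and 0.55 ± 0.18 (SE, adjusted p of 0.0796 in edgeR) at day 3, and with the block it passed at both (adjusted p = 0.0137 and 0.0297) in edgeR but not in DESeq2 (adjusted p = 0.0637 and 0.103). The day 5 call was lost without any 1 library (edgeR adjusted p = 0.115 to 0.155), with relative log expression factors (0.055), without a filter (0.0932), with only the 4 libraries compared (0.113), with DESeq2 (adjusted p = 0.0537) and in limma's test of log2(FPKM + 1) (0.106).

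BTG2 and BTG1, related antiproliferative adaptors of mRNA decay, did not rise against control in either fit. BTG2 stood at 48.2 and 12.3 CPM at day 5, 23.6 and 8.81 CPM at day 3 and 44.1 and 20.5 CPM in the controls. Replicate 2 exceeded replicate 1 in each group, and the groups overlapped. At day 3 BTG2 had log2 ratios to control of -0.89 and -1.17 in replicates 2 and 1 (adjusted p of 0.515 in edgeR without a block), and it fell with the block (-1.06, edgeR adjusted p = 0.000648). BTG1 stood at 99.3 and 87.9 CPM at day 5, 79.5 and 72.4 CPM at day 3 and 94.7 and 91.8 CPM in the controls, lowest at day 3 and not past the threshold in either fit. SERTAD1, a regulator of cyclin D kinases and E2F, also did not pass at either day.

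Of the 4 genes for DNA repair and nucleotide supply 1 rose at day 5 without the block and 3 with it, where 7.44% and 15.8% of all genes did. RRM2B, the p53-inducible small subunit of ribonucleotide reductase, stood at 139 and 94.9 CPM at day 5, 70.0 and 51.1 CPM at day 3 and 65.9 and 51.5 CPM in the controls. Its day 5 libraries lay above all others, and its day 3 libraries overlapped the controls. The log2 fold change was 0.99 ± 0.24 (SE, adjusted p of 0.0335 in edgeR) at day 5 and 0.04 ± 0.24 (SE, adjusted p of 0.93 in edgeR) at day 3. The day 5 call was lost without control replicate 1 or 2 (0.82 and 1.15, edgeR adjusted p = 0.163 and 0.0662) and likewise without KO day 5 replicate 2 (0.69, with an adjusted p of 0.141).

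POLH, the DNA polymerase that copies past ultraviolet lesions, stood at 75.2 and 53.7 CPM at day 5, 69.9 and 57.8 CPM at day 3 and 47.5 and 35.6 CPM in the controls. Every KO-labelled library lay above both controls, with log2 fold changes of 0.63 and 0.62 (edgeR adjusted p = 0.0884 and 0.102, and 0.00129 and 0.00143 with the block). XPC, a sensor of DNA lesions in nucleotide excision repair, stood at 29.7 and 22.7 CPM at day 5, 29 and 16.9 CPM at day 3 and 19.7 and 14.3 CPM in the controls. It passed with the block at day 5 (edgeR adjusted p = 0.0103, against 0.2 without), and it shares exonic bases with 3 genes on the other strand, LSM3 among them. DDB2, whose window held the paired half-sites shown above and whose protein recognises ultraviolet damage, stood at 62.7 and 48.7 CPM at day 5, 52.1 and 43.6 CPM at day 3 and 62 and 36.2 CPM in the controls. It did not pass at either day in either fit, and its groups overlapped.

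In the metabolic group FDXR stood apart. FDXR, the mitochondrial ferredoxin reductase with a half-site just before its start, stood at 62.8 and 46.1 CPM at day 5, 57.5 and 41.1 CPM at day 3 and 32.1 and 17.8 CPM in the controls. Every KO-labelled library lay above both controls. Against control, the log2 fold change came to 1.12 ± 0.32 (SE, adjusted p of 0.0589 in edgeR) at day 5 and 0.98 ± 0.31 (SE, adjusted p of 0.094 in edgeR) at day 3, and FDXR rose at both with the block (edgeR adjusted p = 1.33e-05 and 7.08e-05). SESN1, a stress-inducible inhibitor of mTORC1 signalling, stood at 69.3 and 46.2 CPM at day 5, 47.3 and 32.2 CPM at day 3 and 44.6 and 42.5 CPM in the controls and did not pass against control. TIGAR, a fructose bisphosphatase, had 10 and 21 counts at day 5, 34 and 20 at day 3 and 40 and 17 in the controls. TP53I3, a quinone oxidoreductase, had 39 and 13 counts at day 5, 23 and 14 at day 3 and 63 and 7 in the controls. At these counts neither TIGAR nor TP53I3 differed detectably from control, with standard errors of 0.69 and 0.91 on the log2 scale at day 5.

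Of the genes for death, autophagy and RNA binding 0 of 6 passed without the block, where 14.5% of all genes were called at day 5, and 5 rose with it, where 15.8% of all genes did. Over all 29 members 12 had an unadjusted p below 0.05 at day 5, as had 4504 of the 14601 genes. Over all members, and not only this group, DESeq2 called 7 higher and 2 lower at day 5. It called 2762 genes in either direction, and this total was not split by direction. PHLDA3, which blocks AKT at the membrane, stood at 160.3 and 122 CPM at day 5, 121 and 87.7 CPM at day 3 and 101 and 40.9 CPM in the controls. Its control replicate 2 lay between the day 3 libraries, and its log2 fold change at day 5 was 0.99 ± 0.45 (SE, adjusted p of 0.21 in edgeR), or 1.09 with the block (edgeR adjusted p = 0.00816). TRIAP1, a small mitochondrial lipid-transfer protein that restrains apoptosis, stood at 139 and 99.9 CPM at day 5, 129 and 93.9 CPM at day 3 and 85.9 and 63.6 CPM in the controls. Against control its log2 ratio was 0.67 at day 5 and 0.58 at day 3, and it rose at both with the block (edgeR adjusted p = 0.000222 and 0.000989).

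ZMAT3, a zinc finger protein that binds RNA, stood at 87.3 and 53.5 CPM at day 5, 44.5 and 29.3 CPM at day 3 and 44.7 and 25.4 CPM in the controls, with day 5 above the controls and day 3 not. Within replicates 2 and 1 its log2 ratio to control was 0.96 and 1.06 at day 5, where it passed with the block (edgeR adjusted p = 2.10e-05) and not without it. TP53INP1, a stress protein that promotes autophagy, stood at 29 and 10.2 CPM at day 5, 8.03 and 4.69 CPM at day 3 and 14.3 and 4.05 CPM in the controls. It passed at day 5 with the block (edgeR adjusted p = 0.00212, against 0.389 without). AEN, an apoptosis-enhancing nuclease, stood at 102 and 104 CPM at day 5, 119 and 104 CPM at day 3 and 90.9 and 71.3 CPM in the controls and passed at both days with the block (edgeR adjusted p = 0.0339 and 0.00825). EI24, an endoplasmic reticulum protein of autophagy, stood at 87.5 and 92.4 CPM at day 5, 96.1 and 103 CPM at day 3 and 77.7 and 102 CPM in the controls and passed in neither fit.

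Between the days, 23 of 29 members had a higher mean at day 5 than at day 3 by fold change, with a median log2 fold change of 0.42, against 0.02 over all genes. Without a block 0 members passed, where 0.0274% of all genes were called. At an unadjusted p below 0.05 there were 9 members and 2206 of the 14601 genes, and DESeq2 called 2 members higher, GDF15 and RRM2B, of 306 genes called in all. Both day 5 libraries lay above both day 3 libraries in 11 members and below in 4, against 25.5% and 23.8% of all genes. Within both replicate numbers 22 were higher and 4 lower, against 35.3% and 33% of all genes. With the block 10 members were higher at day 5 and 0 lower, where 4.44% of all genes were called higher and 3.21% lower. GDF15 had a log2 fold change of 1.50 ± 0.29 (SE, adjusted p of 0.171 in edgeR), or 1.44 with the block (edgeR adjusted p = 9.29e-05). GDF15 also passed without the block when KO day 5 replicate 1 was left out (1.87, edgeR adjusted p = 0.0351).

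The other 9 called with the block were RRM2B, ZMAT3, TP53INP1, CDKN1A, CCNG1, BTG2, GADD45A, MDM2 and SESN1. RRM2B had 0.98 and 0.89 on the log2 scale within replicates 2 and 1, and ZMAT3 0.97 and 0.86. TP53INP1 had 1.79 and 1.05 and CDKN1A 0.68 and 0.39. MDM2 had 0.54 and 0.47, and it was called in the blocked fit in this comparison (edgeR adjusted p = 0.0252) but not in those with control. FDXR, POLH, TRIAP1 and XPC lay close to their day 3 levels, with log2 fold changes of 0.14, 0.01, 0.10 and 0.19 and standard errors of 0.31, 0.21, 0.23 and 0.29. The 2 comparisons with control share the control libraries.

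The members also differed between the replicate numbers. The library titles begin with B for replicate 2 and A for replicate 1, and the labels do not say what the letters stand for. Replicate 2 lay above replicate 1 in all 3 groups in 19 of 29 members and below in 2, EI24 and FBXW7, against 20.2% each of all genes. In the fit with the replicate block 14 members were higher in replicate 2 and 0 lower, where 4.08% of all genes were called higher and 2.87% lower, or 6.94% in either direction. The median log2 difference was 0.43 over the members and rounded to 0.00 over all genes. This comparison was added after the values were seen. Its fit left only 2 residual degrees of freedom, to which the test adds information on spread shared across genes.

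CDKN1A had a ratio of replicate 2 to replicate 1 of 2.37 at day 5, 1.93 at day 3 and 1.93 in the controls, and a log2 difference of 1.05 ± 0.10 (SE, adjusted p of 2.55e-06 in edgeR). BTG2 had ratios of 3.91 at day 5, 2.68 at day 3 and 2.15 in the controls, and a log2 difference of 1.49 ± 0.16 (SE, adjusted p of 1.47e-05 in edgeR). TP53INP1 had ratios of 2.83 at day 5, 1.71 at day 3 and 3.54 in the controls, and a log2 difference of 1.37 ± 0.21 (SE, adjusted p of 0.000376 in edgeR). For these 3 genes the split between replicate numbers was larger than the change against control in the blocked fit. ZMAT3, FDXR, TRIAP1, RRM2B, SERTAD1, MDM2, DDB2, GDF15, XPC, POLH and GADD45A were the other 11 called, with log2 differences of 0.39 to 0.76. All 4 genes for DNA repair and nucleotide supply were among them. DESeq2 with the block called 11 members higher in replicate 2, and 770 genes in either direction. In it DDB2, POLH and XPC of that group, and GADD45A, did not pass (DESeq2 adjusted p of 0.0538 to 0.0857). Leaving out 1 library ended some of the edgeR calls and also added calls of members not called with all 6 libraries. With 1 library of a group left out, the other no longer bears on this difference. The 2 runs of a group are therefore near repeats and not separate checks. GDF15, MDM2, POLH, RRM2B, SERTAD1 and GADD45A lost the call without either KO day 5 library, GDF15 with a log2 difference of 0.26. Without either KO day 3 library MDM2, POLH, RRM2B, TRIAP1 and XPC lost it, and without either control library DDB2 and GADD45A. MDM4, PPM1D, CCNG1, CCNG2, FBXW7, GADD45B and BTG1 had log2 differences between -0.08 and 0.12 and were not called.

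Genes that p21 and DREAM repress showed the opposite split. Replicate 2 lay below replicate 1 in all 3 groups in 13 of 16 tested and above in 0, where 20.2% of all genes did each. In the blocked fit 7 were lower in replicate 2, against 2.87% of all genes. Of these, CCNA2 and TOP2A were chosen as examples after their values were seen. CCNA2, the S and G2 phase cyclin, stood at 43.6 and 82.2 CPM at day 5, 45.8 and 58.2 CPM at day 3 and 51.3 and 78.4 CPM in the controls. TOP2A, a DNA topoisomerase of dividing cells, stood at 254 and 374 CPM at day 5, 146 and 188 CPM at day 3 and 211 and 292 CPM in the controls. Myeloid markers, chosen in the same way, also differed. LYZ, lysozyme, stood at 229 and 19 CPM at day 5, 178 and 33.6 CPM at day 3 and 392 and 139 CPM in the controls. CTSG, cathepsin G of granules, stood at 429 and 895 CPM at day 5, 651 and 1362 CPM at day 3 and 566 and 1404 CPM in the controls. The part of cell state in the members' split was not tested.

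**Figure D4:**
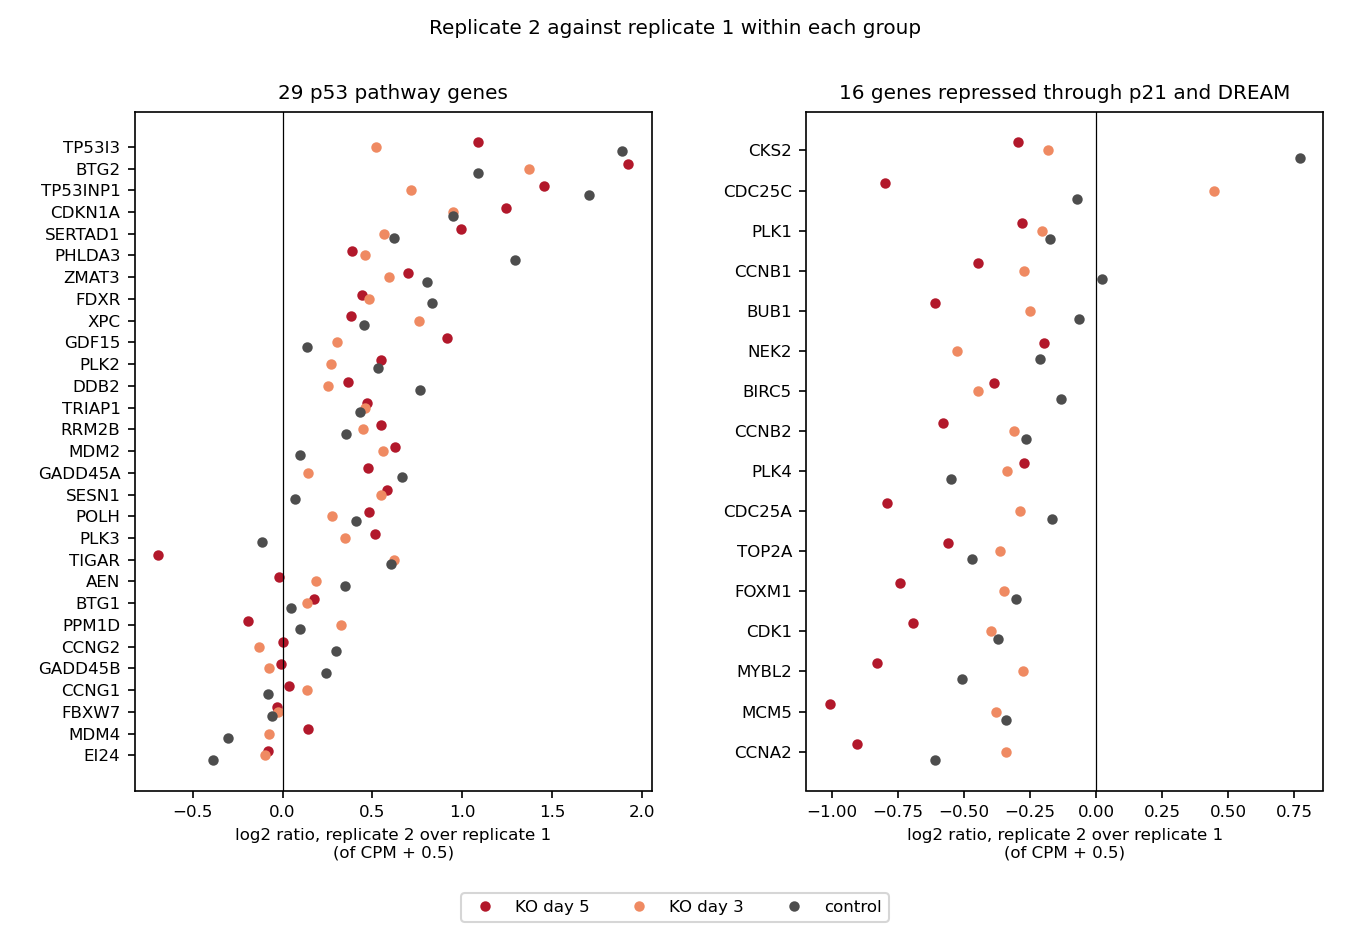
Log2 ratio of replicate 2 to replicate 1 (of CPM + 0.5) within each group for the 29 tested members and for 16 genes repressed through p21 and DREAM, each ordered by the difference in the blocked fit. In 19 of the 29 members all 3 points lie right of 0, and in 13 of the 16 repressed genes all 3 lie left of 0.

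Against control 1 of the 16 repressed genes tested rose at day 5, the mitotic kinase NEK2, with a log2 fold change of 1.22 ± 0.22 (SE, adjusted p of 0.0124 in edgeR), and 0 fell, where 7.44% of all genes were called higher and 7.05% lower. NEK2 did not pass without KO day 5 replicate 1 (edgeR adjusted p = 0.0595). At day 3, 2 fell, the centriole kinase PLK4 and the transcription factor FOXM1, with log2 fold changes of -0.94 ± 0.24 (SE, adjusted p of 0.0412 in edgeR) and -1.05 ± 0.26 (SE, adjusted p of 0.0438 in edgeR), and 0 rose, where 5.99% of all genes were called lower and 5.72% higher. FOXM1 did not pass without either control library, without either KO day 3 library or by limma (adjusted p of 0.0571 to 0.235). PLK4 did not pass without control replicate 1, without any 1 KO-labelled library, with only the 4 libraries compared or by limma (adjusted p of 0.0514 to 0.244). With the block 4 were higher and 3 lower at day 5, against 15.8% and 14.5% of all genes, and 0 higher and 6 lower at day 3, against 13.6% and 14.2%. The median log2 fold changes were 0.10 at day 5 and -0.27 at day 3. Between the days the median was 0.43, and with the block 8 were higher at day 5 and 1 lower, against 4.44% and 3.21% of all genes.

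Other established p53 targets were mixed. Of 44 tested outside the members 5 rose and 5 fell at day 5, and 3 rose and 4 fell at day 3, with median log2 fold changes of 0.20 and -0.04. Over all genes 7.44% and 7.05% were called at day 5, and 5.72% and 5.99% at day 3. With the block 12 rose and 5 fell at day 5, against 15.8% and 14.5% of all genes, and 7 rose and 10 fell at day 3, against 13.6% and 14.2%. ISCU, a scaffold for iron-sulphur clusters, stood at 248 and 201 CPM at day 5, 198 and 189.5 CPM at day 3 and 121 and 85.4 CPM in the controls. Its log2 fold change was 1.12 ± 0.19 (SE, adjusted p of 0.00923 in edgeR) at day 5 and 0.91 (edgeR adjusted p = 0.0216) at day 3. The day 3 call of ISCU was lost without either KO day 3 library. ASCC3, a DNA helicase, rose at day 5, by a log2 fold change of 0.84 ± 0.15 (SE, adjusted p of 0.011 in edgeR). Without KO day 5 replicate 2 neither ISCU nor ASCC3 passed at day 5 (log2 fold changes of 0.96 and 0.82). DRAM1, a lysosomal protein that promotes autophagy, fell to 26.4 and 22.5 CPM at day 5 and 25.4 and 15.4 CPM at day 3, against 151 and 114 CPM in the controls. Its log2 fold changes were -2.44 and -2.70 (edgeR adjusted p = 0.00257 and 0.0025).

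SESN2, a sestrin that both p53 and ATF4 raise, stood at 249.6 and 213 CPM at day 5, 285 and 262 CPM at day 3 and 116 and 124 CPM in the controls. It rose at both days, by 0.95 and 1.19 on the log2 scale (edgeR adjusted p = 0.0045 and 0.0025). Of 14 ATF4 targets 5 rose and 1 fell at day 5, and 5 rose and 1 fell at day 3, where 14.5% and 11.7% of all genes were called in either direction. SESN2, TRIB3, ATF5 and DDIT3 rose at both days, CEBPB at day 5 and DDIT4 at day 3. DDIT3 did not pass at day 5 without KO day 5 replicate 2 (edgeR adjusted p = 0.0649). PHGDH, an enzyme of serine synthesis, fell at day 5 (-0.52, edgeR adjusted p = 0.0212) and SLC7A11, a cystine transporter, at day 3 (-0.49, edgeR adjusted p = 0.0334). CEBPB, DDIT4, PHGDH and SLC7A11 are named after their values were seen. With the replicate block 7 of the 14 rose and 3 fell at day 5, and 6 rose and 2 fell at day 3. Over all genes 15.8% were called higher and 14.5% lower with the block at day 5, and 13.6% and 14.2% at day 3. TRIB3, a stress-induced pseudokinase, stood at 1056 and 937 CPM at day 5, 803 and 794 CPM at day 3 and 187 and 213 CPM in the controls, and ATF5, a stress transcription factor, at 136 and 109 CPM at day 5, 106 and 98.3 CPM at day 3 and 26.8 and 22.7 CPM in the controls. Both were higher in all 4 KO-labelled libraries, as was GDF15, a target of both factors. The part of ATF4 in the GDF15 result was not tested.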

How the data were processed

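RNA from 6 MOLM-13 libraries was measured by RNA-seq, 2 for each of 3 groups assigned from the sample titles and characteristics. The authors deposited raw read counts per gene, 1 column per library, and FPKM values, scaled by gene length and library size, per the file headers. HISAT2, HTSeq 0.11.2, DESeq2 1.26.0 and the build GRCh38 are named in the submitters' processing notes, without a role. Neither annotation nor counting settings were given in the sources used here. Whether the library kit kept strand is also unstated, and a gene's reads then cannot be told apart from those of a gene on its other strand.

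The counts were tested over all genes that passed edgeR's filterByExpr (minimum count 10, minimum total 15), with TMM factors, a prior count of 0.125, a quasi-likelihood test on all 6 libraries (3 residual degrees of freedom, or 2 with the block) and Benjamini-Hochberg adjustment at 0.05 (edgeR 4.0.16, R 4.3.3). The test also shares information on spread across genes, with a median of 5.12 prior degrees of freedom in the fit without the block. The standard error of a log2 fold change was its size divided by the square root of F. CPM values are TMM-scaled, and errors after ± are SE where so marked. DESeq2 1.42.0 and limma 3.58.1 (on log2(FPKM + 1) values) were alternatives, beside other size factors, other filters, the 4 libraries compared alone and leaving out each library. The procedure without the block was also run on simulated data with changes of known size. These data held no replicate-number effect, so the run does not bear on that split or on the blocked fit. FPKM entered only levels and the limma alternative.

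Libraries of the same replicate number deviated together from their group means (correlations of 0.303 to 0.355), and their titles begin with the same letter, so the number was treated as a pairing. Total counts set a limit of up to 0.194 CPM for a gene at 0 counts (3 counts), which covers counting error only. Promoter sequences came from RefSeq (GRCh38.p14).

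The members and lists were chosen with earlier results of these data known. Every member could be named. Full statistics were planned for members past the threshold and for MDM2, MDM4, CDKN1A and PPM1D, and up to 4 genes with the smallest adjusted p were named from each other list. Library values of the remaining members were added after they were seen, as was the comparison of replicate 2 with replicate 1.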

Additional observations from a re-analysis of the deposited data

How the results depend on the processing

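With the replicate block 4418 genes were called at day 5 against control, 4064 at day 3 against control and 1117 between the days, with 14, 10 and 10 members higher, and 3 lower at day 3. The block changed no call of a member beyond those given in the text. DESeq2 with the block, added after the data were seen, called 3393, 3090 and 811 genes, with 12, 8 and 9 members higher, and 3 lower at day 3. Without the low-count filter 3234, 2925 and 599 genes were called, with 8, 6 and 3 members higher, and 2 lower at day 3. DESeq2 alone called 306 genes and 2 higher members between the days, and 2 lower members at day 3. The 4 libraries compared alone gave 1315 genes and 1 lower member at day 5, and limma gave 1 lower member at day 5 and 1 gene between the days.

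Leaving out 1 library gave 723 to 1874 genes, 2 to 5 higher and 1 to 2 lower members at day 5, and 282 to 1906 genes, 1 to 6 higher and 1 to 2 lower members at day 3. Between the days it gave 1 to 15 genes and 0 to 1 higher members, and between the replicate numbers 633 to 1161 genes and 9 to 14 higher members.

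Some log2 fold changes that did not pass turned sign when 1 library was left out. Over the left-out libraries CDKN1A ranged from -0.1953 to 0.9001 at day 3 (-0.0573 without control replicate 1) and from -0.1661 to 1.092 between the days. RRM2B ranged from -0.1819 to 0.2633 at day 3 (-0.1201 without control replicate 1) and PPM1D from -0.2326 to 0.0893. MDM2 ranged from -0.4724 to 0.082 at day 3 and from -0.0142 to 0.6009 at day 5. MDM4 between the days ranged from -0.1127 to 0.0236, and was 0.0386 by limma. The causes were not tested. With 2 libraries per group, low members such as TIGAR and TP53I3 allow no firm statement.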

Other observations

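Outside the members, 20 genes that modify p53 or its stability were tested, of which 2 rose and 1 fell at day 5, and 1 rose and 1 fell at day 3. Over all genes 7.44% were called higher and 7.05% lower at day 5, and 5.72% and 5.99% at day 3. The median log2 fold changes of the 20 were 0.00 and -0.09. With the replicate block 3 rose and 3 fell at day 5, and 2 rose and 2 fell at day 3. Over all genes 15.8% were called higher and 14.5% lower with the block at day 5, and 13.6% and 14.2% at day 3.

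Of 10 FOXO targets outside the members, CITED2, a transcriptional coregulator, stood at 519 and 449 CPM at day 5, 455 and 387 CPM at day 3 and 668 and 689.5 CPM in the controls, below control in all 4 KO-labelled libraries. Its log2 fold change was -0.49 ± 0.13 (SE, adjusted p of 0.0459 in edgeR) at day 5 and -0.69 ± 0.13 (SE, adjusted p of 0.0181 in edgeR) at day 3. The day 5 call was lost without control replicate 1, without any 1 KO-labelled library, with only the 4 libraries compared and by limma (adjusted p of 0.0734 to 0.18), and the day 3 call without either KO day 3 library (edgeR adjusted p = 0.167 and 0.0801). The median log2 fold change of the 10 was -0.37 at day 5 and -0.62 at day 3.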
